A study of Homo sapiens with 9 samples.

Results

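The mitochondrial genome of human cells carries 37 genes, and all of them were measured here in 143B cells treated with the compound XD23. They were taken as every gene in the table of 36810 genes whose symbol starts with MT-, which gave 13 mRNAs, 2 rRNAs and 22 tRNAs. 143B is an established human osteosarcoma line, which is also widely used as the parent line of cybrids, cells whose mitochondrial DNA has been exchanged. The 9 libraries form 3 groups of 3: untreated 143B cells at 0 h (control), 143B cells after 24 h with 0.5 µM XD23, and 143B cells after 48 h at the same dose. All groups were grown in RPMI-1640 with fetal bovine serum and penicillin-streptomycin. XD23 is known here by its code name alone. Neither a vehicle nor time-matched untreated cells are named, so the compound and the time in culture cannot be told apart. Whether the libraries of a group are separate cultures is not stated, and p-values thus reflect the spread between libraries, which may be technical. The libraries were made from RNA captured on oligo(dT), which selects polyadenylated molecules, and no strand-specific kit is named.

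Mitochondrial DNA is a compact circle with almost no bases between its genes. The mitochondrial RNA polymerase POLRMT, with the factors TFAM and TFB2M, copies both strands into long transcripts that span many genes. The tRNAs sit between most mRNAs, and their excision by the nucleases RNase P and ELAC2 releases the mRNAs, rRNAs and tRNAs. The mRNAs encode core subunits of complex I (the MT-ND genes), complex III (MT-CYB), complex IV (MT-CO1 to MT-CO3) and ATP synthase (MT-ATP6 and MT-ATP8), and each of these complexes also needs subunits encoded in the nucleus. Genes of one strand thus share their transcription, while the level of each RNA also depends on processing, polyadenylation and decay.

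Many of these mRNAs lack a complete stop codon in DNA, and the added poly(A) tail supplies its missing bases. The annotated 3′ ends of the 6 mRNAs called at 48 h against control are shown because they include incomplete and complete final codons. An annotated end need not be the end of the RNA in the cell. Each line gives the last 24 bases of the annotated transcript, 5′ to 3′, from the GENCODE release 29 transcripts (build GRCh38). Capitals mark either the bases past the last full codon, to be completed by the tail, or a complete final codon.
MT-ND1, chrM:3307-4262, plus strand: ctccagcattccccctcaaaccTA
MT-ND2, chrM:4470-5511, plus strand: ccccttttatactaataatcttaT
MT-CO3, chrM:9207-9990, plus strand: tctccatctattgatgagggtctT
MT-CYB, chrM:14747-15887, plus strand: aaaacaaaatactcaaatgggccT
MT-CO1, chrM:5904-7445, plus strand: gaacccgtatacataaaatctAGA
MT-CO2, chrM:7586-8269, plus strand: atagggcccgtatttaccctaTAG
MT-ND1, MT-ND2, MT-CO3 and MT-CYB end in an incomplete codon, and MT-CO1 and MT-CO2 end in a complete one. Both endings occur among the mRNAs that rose and among those that fell at 48 h. The calls of MT-CO1 and MT-CO2 ended, however, when any of 8 libraries was left out. Whether the ending goes with the direction of change was not tested.

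The tRNAs whose values carry the results below are shown whole, 5′ to 3′, with the anticodon in capitals, from the same transcripts. They are the 3 tRNAs with the highest FPKM (MT-TP, MT-TC and MT-TN), the 2 whose call at 48 h against control held under every alternative tried (MT-TI and MT-TD), and MT-TS2 and MT-TR, whose calls at 48 h against 24 h did so.
MT-TP (proline), chrM:15956-16023, minus strand: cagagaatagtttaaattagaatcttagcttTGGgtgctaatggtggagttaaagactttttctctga
MT-TC (cysteine), chrM:5761-5826, minus strand: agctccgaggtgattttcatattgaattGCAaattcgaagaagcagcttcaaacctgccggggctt
MT-TN (asparagine), chrM:5657-5729, minus strand: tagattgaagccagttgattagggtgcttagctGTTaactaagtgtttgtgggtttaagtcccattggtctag
MT-TI (isoleucine), chrM:4263-4331, plus strand: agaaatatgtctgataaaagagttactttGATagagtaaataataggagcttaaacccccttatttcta
MT-TD (aspartate), chrM:7518-7585, plus strand: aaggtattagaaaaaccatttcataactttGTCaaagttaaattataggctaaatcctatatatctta
MT-TS2 (serine), chrM:12207-12265, plus strand: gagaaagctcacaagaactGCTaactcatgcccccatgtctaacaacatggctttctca
MT-TR (arginine), chrM:10405-10469, plus strand: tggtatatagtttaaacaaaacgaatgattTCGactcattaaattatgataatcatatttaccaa
MT-TS2 is the shortest of the 22 tRNAs, which span 59 to 75 bases. Of the 22, 14 lie on the plus strand and 8 on the minus strand, and MT-ND6 is the single mRNA on the minus strand. Because strand-specific counting is not stated, fragments of a gene cannot be told from fragments of the transcript opposite to it.

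Values are FPKM, fragments scaled to the length of the gene and the depth of the library. The libraries held 18341542 to 22901830 fragments, and the FPKM of all 37 genes came out as whole fragments within 0.001. Each mRNA rested on 6062 to 422932 fragments per library. The tRNAs rested on 0 to 3083 fragments, and 1 fragment on 70 bases is worth 0.624 to 0.779 FPKM. The 48 h libraries lay apart from the other 6 on the first principal component of all tested genes (18.7 to 22.6 against -13.6 to -8.22). The third 24 h library differed on the second component (24.7 against -9.06 to 6.96) and had the highest summed FPKM, 311540 against 287534 to 296874 in the other 8. Of the lineage markers, VIM (297 to 389 FPKM), SPARC (27.6 to 43.3) and RUNX2 (4.06 to 6.61) were present, while COL1A1 (0.197 to 0.703), COL1A2 (at most 0.0548) and ALPL (at most 0.171) were near 0. Markers of leukocytes (PTPRC, at most 0.0145 FPKM), hepatocytes (ALB, at most 0.146) and endothelium (PECAM1, 0.215 to 0.699) lay below 1 FPKM in every library.

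Mitochondrial transcripts took a large share of the summed FPKM in each library. In control their share was 28.0% ± 0.81 (SD, n = 3), after 24 h 29.2% ± 0.38 and after 48 h 29.1% ± 0.36. The control libraries lay between 27.3% and 28.9%, and the 48 h libraries between 28.7% and 29.5%, so the groups overlapped. As a share of fragments, which does not weight short genes up, the 37 genes took 7.5% ± 0.22 in control, 8.03% ± 0.14 at 24 h and 7.86% ± 0.11 at 48 h. The control libraries lay between 7.29% and 7.73%, those at 24 h between 7.94% and 8.19% and those at 48 h between 7.76% and 7.97%, so by this measure all treated libraries lay above all controls. The 13 mRNAs held most of the summed FPKM (24.1% ± 0.91, 25.5% ± 0.32 and 25.1% ± 0.26 in the same order). The rRNAs held 2.40% ± 0.13, 2.15% ± 0.017 and 2.43% ± 0.10, and the tRNAs 1.53% ± 0.025, 1.5% ± 0.067 and 1.52% ± 0.037. These are shares within RNA captured on oligo(dT), not within all RNA of the cells.

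In control cells the 3 subunit mRNAs of complex IV were the most abundant per length. MT-CO3 stood at 12098 ± 287 FPKM (SD, n = 3), MT-CO2 at 11233 ± 388 and MT-CO1 at 10748 ± 324, and the libraries of MT-CO2 and MT-CO1 overlapped. A middle group followed with MT-ND4 (7178 ± 445 FPKM), MT-ATP6 (6736 ± 155) and MT-ND4L (6348 ± 594), whose neighbours overlapped. MT-ND2 (4029.6 ± 287), MT-ND3 (3151 ± 168) and MT-ND1 (2655 ± 124) came next, each separate from its neighbours in all libraries. The lowest were MT-ND5 (1804 ± 149), MT-ATP8 (1666 ± 60.5), MT-CYB (1542 ± 83.1) and MT-ND6 (1529 ± 157), whose neighbours all overlapped. This is the order in RNA captured on oligo(dT), so it also depends on how well each mRNA was captured. MT-ATP8 and MT-ATP6 share 1 message and 46 bases, and MT-ND4L and MT-ND4 share 1 message and 7 bases, so fragments in the shared bases cannot be assigned to 1 of the pair. MT-ATP8 stood at 0.247 ± 0.0072 of the FPKM of MT-ATP6, and MT-ND4L at 0.884 ± 0.048 of that of MT-ND4. FPKM is scaled to the whole gene, 207 bases for MT-ATP8, shared bases included. The part of these ratios that comes from unassigned fragments was not tested.

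**Figure D1:**
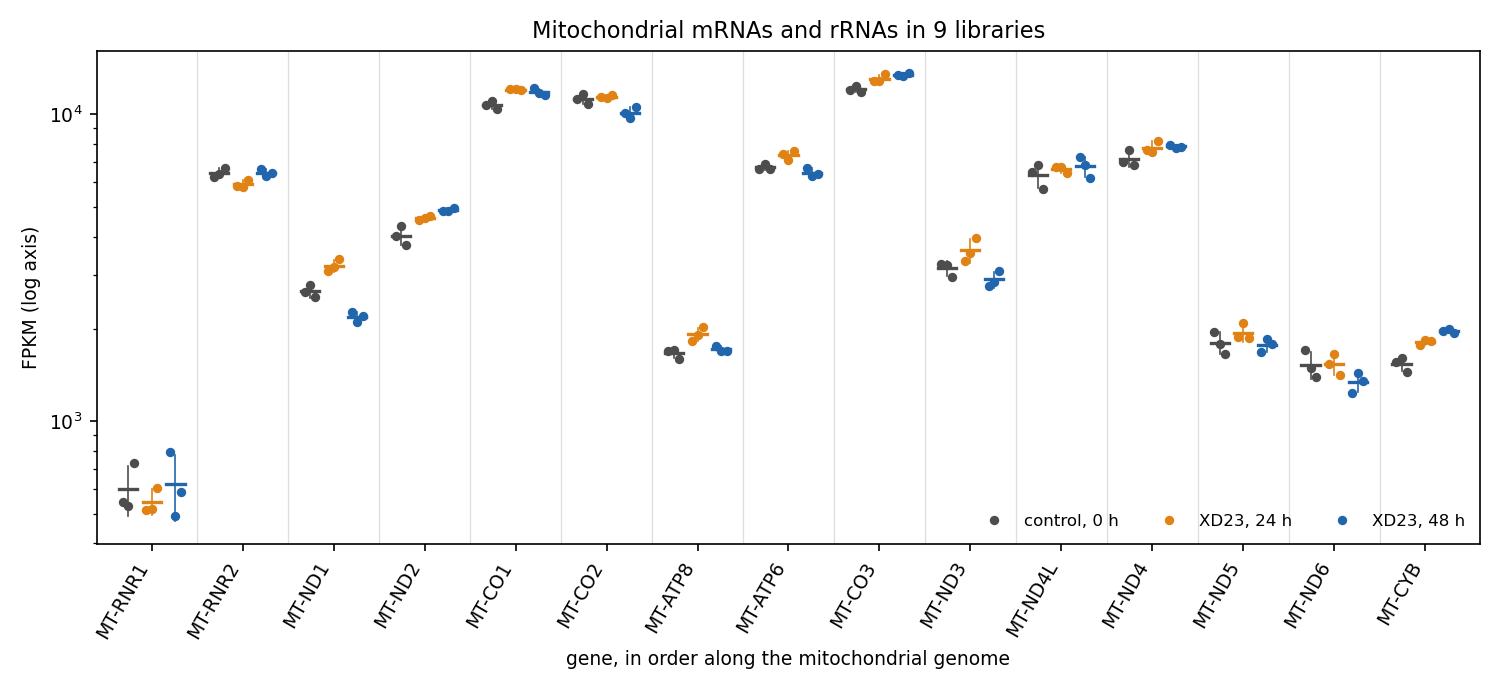
FPKM on a log axis of the 13 mitochondrial mRNAs and 2 rRNAs, in genome order; points are single libraries of control, 24 h and 48 h, horizontal lines are means and vertical lines SD (n = 3). MT-CO3, MT-CO2 and MT-CO1 lie highest, MT-ND1 is lowest at 48 h (2104 to 2268 FPKM), and MT-CYB is highest at 48 h (1944 to 1997 FPKM).

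After 24 h, no mitochondrial gene was called. Genes were tested with limma on log2(FPKM + 1) and called at an adjusted p under 0.05 (Benjamini-Hochberg over 13657 genes), and differences are log2 fold changes ± SE on that scale. Of all 13657 genes 1 was called at 24 h (0.00732%), and 0 of the 13 mRNAs, 0 of the 2 rRNAs and 0 of the 22 tRNAs. The lowest adjusted p among them was 0.14, for MT-TR. In this fit all 13 mRNAs had positive differences, from 0.01 to 0.27 with a median of 0.13, beside a median of -0.02 over all genes. Both rRNAs had negative ones, MT-RNR2 at -0.12 ± 0.05 (adjusted p = 0.644) and MT-RNR1 at -0.13 ± 0.18 (adjusted p = 0.878). In 8 mRNAs (MT-ND1, MT-ND2, MT-CO1, MT-ATP8, MT-ATP6, MT-CO3, MT-ND3 and MT-CYB) the 3 libraries at 24 h lay above all 3 controls. The share of all genes separated in this way was not counted. Without that background, the count of 8 is not read as a result about the mRNAs. For 3 against 3 libraries an exact permutation test gives such a separation p = 0.1, the smallest possible. At an unadjusted p under 0.05 there were 8 mRNAs, 1 rRNA and 9 tRNAs, beside 1015 of all genes (7.43%). With voom weights on fragments, 0 of 5095 genes and none of the 37 were called at 24 h. The mitochondrial mRNAs come from shared transcripts, so their common sign is not 13 independent observations. Nor did that sign hold under every alternative tried. The lowest differences were -0.12 for MT-CO2, -0.14 for MT-ND6 and -0.01 for MT-ND4L and MT-ND5, while those of the other mRNAs were not negative. The value for MT-CO2 came under quantile normalization, which sets each value by its rank. MT-CO2 and MT-CO1 exchanged ranks between control and 24 h, so that value follows from the exchange.

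After 48 h, the mRNAs changed in both directions. Of the 13, 4 rose (MT-CYB, MT-ND2, MT-CO3 and MT-CO1), 2 fell (MT-ND1 and MT-CO2) and 7 were not called. Over all genes tested, 28.5% were called, 13.3% rising and 15.2% falling, so 6 calls among 13 mRNAs stand beside a high background. The median difference of the 13 was 0.04, beside -0.02 over all genes. Each change was under 1.3-fold, and the 3 largest were those of MT-CYB, MT-ND1 and MT-ND2.

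MT-CYB encodes cytochrome b, the sole mitochondrially encoded subunit of complex III. It stood at 1562, 1614 and 1451 FPKM in control, 1766, 1844 and 1831 at 24 h, and 1967, 1997 and 1944 at 48 h. The 3 groups did not overlap, with 24 h between control and 48 h. Its mean was 27.7% higher at 48 h than in control, a difference of 0.35 ± 0.05 (limma, adjusted p = 0.000861), and the call held under all 20 alternatives. At 24 h the difference was 0.23 ± 0.05 (adjusted p = 0.3).

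MT-ND1 and MT-ND2 encode membrane subunits of complex I and lie next to each other on the plus strand, with 3 tRNA genes between them. MT-ND1 stood at 2639, 2786 and 2539 FPKM in control, 3081, 3171 and 3375 at 24 h, and 2268, 2104 and 2202 at 48 h. Every 24 h library lay above every control, and every 48 h library lay below every control. Its mean at 48 h was 17.5% below control (-0.28 ± 0.05, limma adjusted p = 0.00571) and 31.7% below 24 h (-0.55 ± 0.05, adjusted p = 0.000178). MT-ND2 stood at 4021, 4321 and 3747 FPKM in control, 4515, 4583 and 4674 at 24 h, and 4837, 4827 and 4937 at 48 h, with no overlap between groups. It rose by 0.27 ± 0.05 at 48 h against control (adjusted p = 0.00604). Both 48 h calls against control ended without a filter on low values (adjusted p = 0.229 for MT-ND1 and 0.42 for MT-ND2). They also ended under quantile normalization, which by construction gives a difference of 0 to a gene whose rank is the same in all libraries.

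The 3 mRNAs of complex IV did not move together. MT-CO3 stood at 12046, 12408 and 11840.0 FPKM in control and at 13387, 13344 and 13624 at 48 h, and MT-CO1 at 10766, 11063 and 10415 in control and 12156, 11739.5 and 11570.4 at 48 h. MT-CO2 stood at 11231, 11622 and 10845 in control and 10128, 9698 and 10539 at 48 h. The 48 h libraries lay above all controls for MT-CO3 and MT-CO1 and below all controls for MT-CO2. The differences were 0.15 ± 0.04 for MT-CO3 (limma, adjusted p = 0.0303), 0.14 ± 0.04 for MT-CO1 (adjusted p = 0.044) and -0.15 ± 0.05 for MT-CO2 (adjusted p = 0.0464). Each of these 3 calls ended when any 1 of 8 libraries was left out, the exception being the third 24 h library, with adjusted p of 0.0518 to 0.104, 0.0627 to 0.155 and 0.0511 to 0.155. Leaving out any of those 8 libraries thus left 2 mRNAs that rose (MT-CYB and MT-ND2) and 1 that fell (MT-ND1).

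The other 7 mRNAs were not called at 48 h against control. In complex I, MT-ND4 differed by 0.13 ± 0.06 (adjusted p = 0.112) and was called under non-mitochondrial scaling (0.0312) and with voom weights (0.0374). MT-ND4L differed by 0.09 ± 0.08, MT-ND3 by -0.12 ± 0.08 and MT-ND5 by -0.02 ± 0.07. MT-ND6, the minus-strand mRNA, stood at 1529 ± 157 FPKM in control and 1343 ± 101 at 48 h, a difference of -0.19 ± 0.09 (adjusted p = 0.158). In ATP synthase, MT-ATP8 differed by 0.04 ± 0.05 and MT-ATP6 by -0.06 ± 0.05. Neither rRNA was called. MT-RNR2, the large-subunit rRNA, stood at 6447 ± 229, 5934 ± 174 and 6465 ± 187 FPKM in the order control, 24 h, 48 h, and MT-RNR1, the small-subunit rRNA, at 604 ± 113, 547 ± 53.1 and 625 ± 153.

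Between 24 h and 48 h, 5 of the 13 mRNAs fell (MT-ND1, MT-ND3, MT-ATP6, MT-CO2 and MT-ATP8) and 0 rose, while over all genes 32.3% were called, 16.0% rising and 16.3% falling. MT-ND3, a small complex I subunit, stood at 3319, 3541 and 3965 FPKM at 24 h and 2759, 2839 and 3098 at 48 h, with no overlap (-0.31 ± 0.08, limma adjusted p = 0.0133). MT-ATP6, which forms part of the proton channel of ATP synthase, stood at 7406, 7085 and 7598 at 24 h and 6699, 6291 and 6397 at 48 h, again with no overlap (-0.19 ± 0.05, adjusted p = 0.0146). MT-CO2 (-0.17 ± 0.05, adjusted p = 0.0243) and MT-ATP8 (-0.16 ± 0.05, adjusted p = 0.0319) had lower values in every 48 h library than in any 24 h library. The fall of MT-ND1 was called with each library left out in turn, with differences of -0.58 to -0.51. Without the third 24 h library 4 mRNAs fell, since MT-ATP8 was no longer called (adjusted p = 0.0502), and MT-RNR2 was called higher (0.15, adjusted p = 0.033). The call of MT-CO2 was lost by leaving out any of 24 h replicates 1 and 2 and 48 h replicates 1 and 2 (adjusted p = 0.0598 to 0.0922). The call of MT-ATP8 was lost without any of 6 libraries (control replicate 1, 24 h replicates 2 and 3, all of 48 h), that of MT-ND3 without 48 h replicate 1 (adjusted p = 0.0507) and that of MT-ATP6 without 48 h replicate 2 (adjusted p = 0.0589). Without 24 h replicate 2, 3 mRNAs fell, and without 48 h replicate 1 or 48 h replicate 2, 2 did. Both comparisons with 48 h use the same 48 h libraries, so they are not independent of each other.

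**Figure D2:**
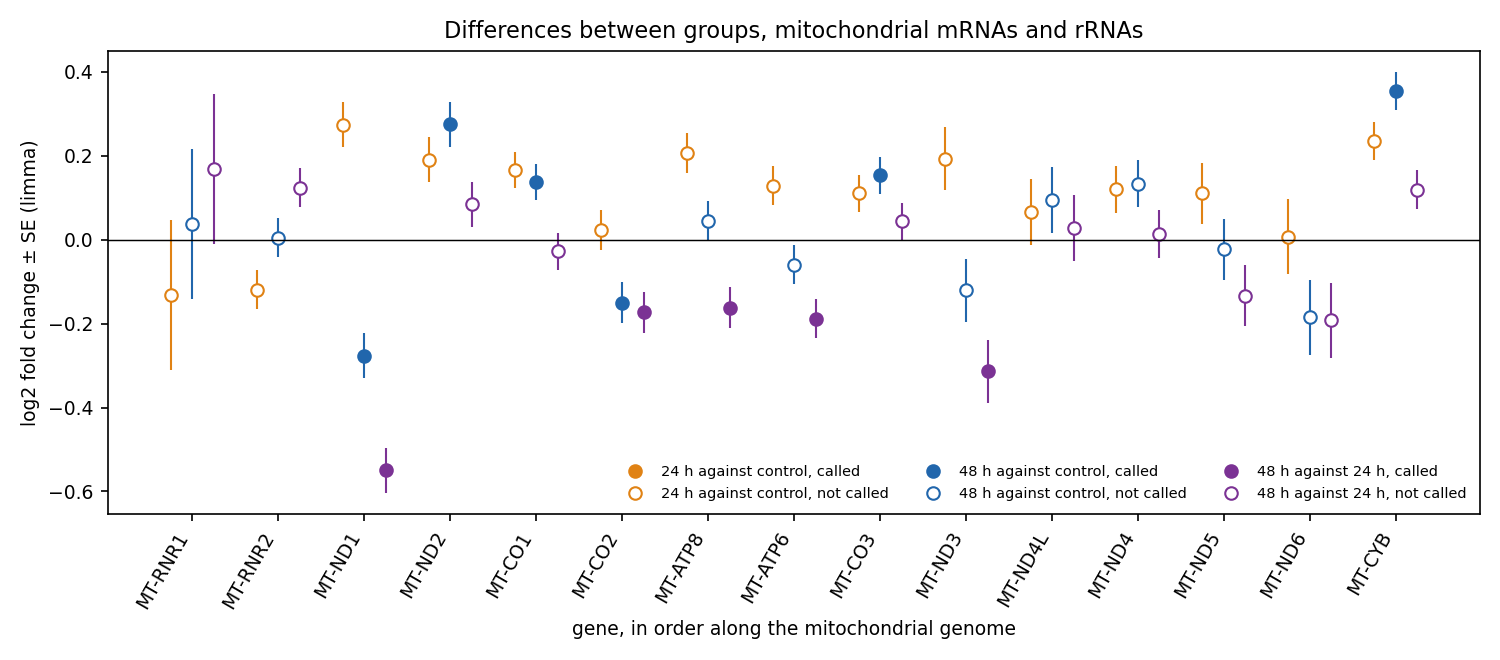
Log2 fold changes of the mRNAs and rRNAs with their limma standard errors (vertical lines) for 24 h against control, 48 h against control and 48 h against 24 h, in genome order; filled points passed an adjusted p under 0.05 and open points did not. All 13 mRNAs are above 0 at 24 h with none called, whereas at 48 h against control they lie between -0.28 (MT-ND1) and 0.35 (MT-CYB).

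Ratios within a library do not depend on how that library was scaled. They are given as a description for pairs chosen after the values were seen. The ratio of MT-ND1 to MT-ND2 was 0.660 ± 0.017 in control, 0.699 ± 0.021 at 24 h and 0.450 ± 0.017 at 48 h. The ratio of MT-CO2 to MT-CO3 was 0.928 ± 0.011, 0.874 ± 0.017 and 0.752 ± 0.024 in the same order, and that of MT-ND6 to MT-CYB, which lie on opposite strands with MT-TE between them, was 0.992 ± 0.088, 0.846 ± 0.066 and 0.682 ± 0.047. For each of these 3 ratios the 48 h libraries lay below all others. Between genes of a shared message the mean ratios moved less. MT-ATP8 to MT-ATP6 stood at 0.247 ± 0.0072, 0.261 ± 0.012 and 0.266 ± 0.0035. Its 48 h libraries (0.263 to 0.270) still lay above all controls (0.240 to 0.2545). MT-ND4L to MT-ND4 stood at 0.884 ± 0.048, 0.852 ± 0.061 and 0.861 ± 0.063, and its groups overlapped. The ratio of MT-RNR2 to MT-RNR1 was 10.9 ± 1.5, 10.9 ± 0.71 and 10.7 ± 2.2. In RNA captured on oligo(dT), this ratio also depends on how well each rRNA was captured. The order of levels shifted accordingly: MT-CO2, at rank 2 in control, stood at rank 3 at 48 h behind MT-CO1 with no overlap, and MT-CYB moved from rank 12 to rank 10.

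**Figure D3:**
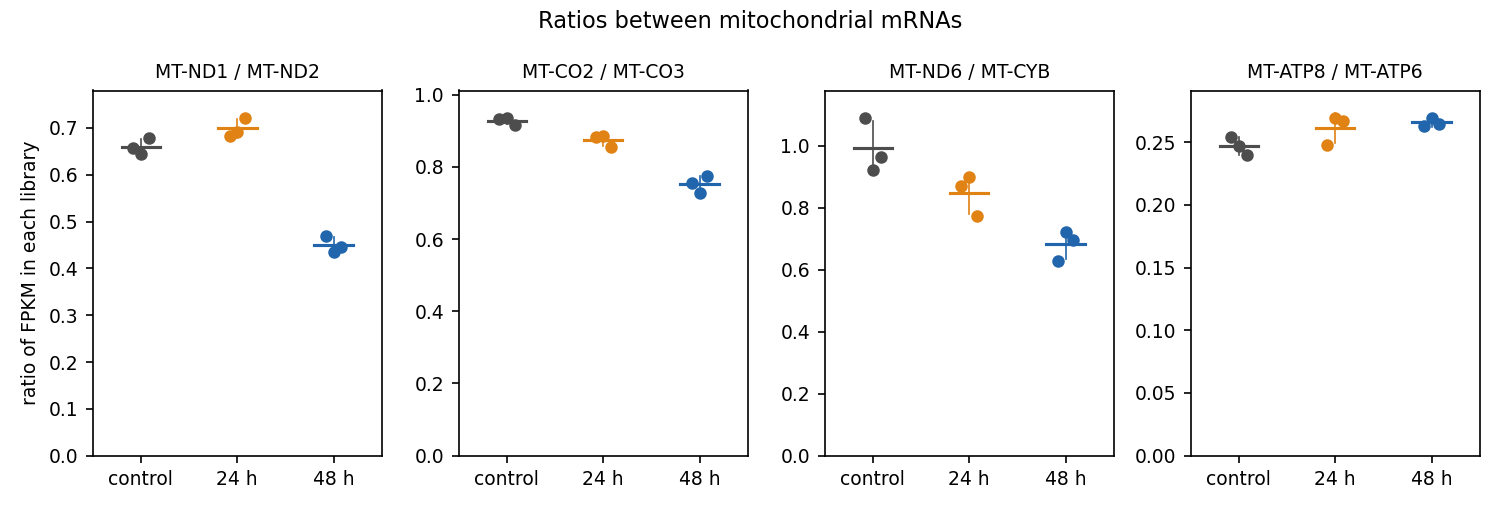
Ratio of FPKM between 4 pairs of mitochondrial mRNAs in each library (points), with the mean (horizontal line) and SD (vertical line) of 3 libraries per group; every axis starts at 0. The MT-ND1 to MT-ND2 ratio lies at 0.436 to 0.469 at 48 h against 0.645 to 0.722 in the other 6 libraries. The MT-ATP8 to MT-ATP6 ratio spans 0.24 to 0.27 over all 9, with the 48 h libraries above all controls.

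Summed over the mRNAs of a complex, the mean levels of complex I, complex IV and ATP synthase were highest at 24 h. Those of complex I summed to 26695 ± 1693 FPKM (control), 29309.7 ± 607 (24 h) and 27701 ± 252 (48 h), and those of complex IV to 34079 ± 996, 36518 ± 444 and 35396 ± 533. Those of ATP synthase summed to 8402 ± 198, 9286 ± 317 and 8179 ± 248. These sums hide opposite changes, such as those of MT-ND1 and MT-ND2 in complex I. Across the 13 mRNAs, the difference at 48 h against control followed length (Pearson r = 0.30) and position along the genome (r = 0.17) only weakly. The same held for control level (r = 0.11) and for GC (r = 0.04), A (r = 0.24) and T content (r = -0.27). At 24 h against control r was 0.04 for GC, 0.50 for A and -0.55 for T content. These points share libraries and transcripts, and the values are a description.

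Nuclear pseudogene copies of mitochondrial DNA can take fragments from the genes they resemble. Of 105 such copies measured, 9 passed the filter. MTATP6P1 (chromosome 1, 633696 to 634376), 98.5% identical to MT-ATP6 over 681 bases, stood at 503 to 694 FPKM. MTND2P28 (98.4% identical to MT-ND2) stood at 153 to 218, MTCO1P12 (98.6% identical to MT-CO1) at 105 to 144 and MTND4P12 (95.8% identical to MT-ND4) at 4.79 to 6.54. Together the copies took 0.278% to 0.340% of the summed FPKM. Of the 9, 2 rose and 0 fell at 48 h against control, beside 13.3% rising and 15.2% falling over all genes. At 48 h against 24 h 0 rose and 1 fell, beside 16.0% rising and 16.3% falling. Counts this small among 9 copies are not read as a result about the copies. MTND2P28 rose at 48 h against control (0.32 ± 0.08, limma adjusted p = 0.0142), as MT-ND2 did, and so did MTCO3P12, a copy under 2 FPKM (0.67 ± 0.20, adjusted p = 0.0344), while MTCO1P12 differed by 0.23 ± 0.08 (adjusted p = 0.0542). MTATP6P1 fell at 48 h against 24 h (-0.21, adjusted p = 0.0489), as MT-ATP6 did. The levels of MT-ND2, MT-CO1 and MT-ATP6 are therefore uncertain by the fragments that may have been assigned to a copy. The part of this in the differences was not tested.

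The tRNAs as a class rest on far fewer fragments than the mRNAs. In 11 of 22 every library held under 50 fragments, and in 5 every library held at least 100. The 3 with the highest FPKM were MT-TP (2113 ± 71.4 in control), MT-TC (1062 ± 34.2) and MT-TN (661 ± 43.8), all 3 on the minus strand. As the RNA was captured on oligo(dT), this order is that of captured fragments and need not be that of the mature tRNAs. MT-TF had 0, 1 and 0 fragments in control, and MT-TI had 0 in control replicate 1. A count of 0 allows up to 3 fragments, which is 2.07 and 2.30 FPKM for MT-TF in control replicates 1 and 3 and 2.13 FPKM for MT-TI, with counting error alone considered. A fragment counted to a tRNA gene may come from the mature tRNA, from an unprocessed transcript or from an adjoining RNA, and the table does not separate them.

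At 48 h against control, 7 of 22 tRNAs rose (MT-TI, MT-TS1, MT-TD, MT-TM, MT-TL1, MT-TC and MT-TN), 2 fell (MT-TP and MT-TS2) and 13 were not called, beside the 28.5% called over all genes. The median difference of the 22 was 0.17. MT-TP, the proline tRNA, lies last before the control region that holds the promoters. It stood at 2175, 2129 and 2035 FPKM in control, 2017, 2095 and 2068 at 24 h, and 1643, 1661 and 1703 at 48 h. The 48 h libraries lay below all others. The difference at 48 h was -0.34 ± 0.04 against control (limma, adjusted p = 0.000518) and -0.30 ± 0.04 against 24 h (adjusted p = 0.000704). Both calls held with each library left out, and both ended without the filter (adjusted p = 0.0584 and 0.0793).

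MT-TC and MT-TN, for cysteine and asparagine, lie in the cluster of tRNA genes between MT-ND2 and MT-CO1, on the strand opposite to both mRNAs. MT-TC stood at 1054, 1033 and 1099.5 FPKM in control, 1069, 1016 and 889 at 24 h, and 1386, 1225 and 1217 at 48 h. MT-TN stood at 709.9, 626 and 647 in control, 583, 575 and 660.0 at 24 h, and 794, 729.7 and 790.0 at 48 h. For both tRNAs all 48 h libraries lay above all others, while control and 24 h overlapped. The rise of MT-TC was 0.26 ± 0.08 over control (limma, adjusted p = 0.0317) and 0.37 ± 0.08 over 24 h (adjusted p = 0.0069). That of MT-TN was 0.22 ± 0.07 (adjusted p = 0.039) and 0.35 ± 0.07 (adjusted p = 0.0052). The calls against control ended when any of 5 libraries was left out for MT-TC (control replicates 1, 2 and 3, 48 h replicates 1 and 2, adjusted p = 0.0554 to 0.104). For MT-TN they ended with any of 4 left out (control replicates 2 and 3, 48 h replicates 1 and 3, adjusted p = 0.108 to 0.124). The calls against 24 h held with each library left out.

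MT-TI and MT-TM, for isoleucine and methionine, lie in the cluster between MT-ND1 and MT-ND2, the pair of mRNAs that changed in opposite directions. MT-TI held 0, 4 and 8 fragments in control, 31, 37 and 45 at 24 h, and 35, 26 and 37 at 48 h. MT-TM held 2 in each control library, 10, 11 and 7 at 24 h, and 6, 14 and 6 at 48 h. All treated libraries lay above all controls for both. The difference at 48 h was 2.87 ± 0.59 for MT-TI (limma, adjusted p = 0.0077) and 1.35 ± 0.25 for MT-TM (adjusted p = 0.00494). The MT-TM call ended with voom weights on fragments (limma, adjusted p = 0.078). The size for MT-TI depends on the pseudocount: it was 4.11 with a pseudocount of 0.1 and 2.07 without control replicate 1. MT-TQ, which overlaps MT-TI by 3 bases on the opposite strand, held 1 to 8 fragments and was not called.

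MT-TD and MT-TS1, for aspartate and serine, lie between MT-CO1 and MT-CO2, on opposite strands. MT-TD held 12, 8 and 16 fragments in control, 41, 51 and 44 at 24 h, and 57, 28 and 28 at 48 h. MT-TS1 held 5, 3 and 5, then 10, 12 and 25, then 11, 17 and 25. Again all treated libraries lay above all controls. At 48 h the difference was 1.36 ± 0.29 for MT-TD (adjusted p = 0.00969) and 1.55 ± 0.36 for MT-TS1 (adjusted p = 0.0137). The MT-TS1 call ended without the filter and with voom weights on fragments (limma, adjusted p up to 0.0547). At 24 h the differences of these 4 tRNAs were of like size (3.10 for MT-TI, 1.55 for MT-TM, 1.72 for MT-TD and 1.38 for MT-TS1), and none was called, with adjusted p of 0.268 to 0.478.

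MT-TL1, a leucine tRNA between MT-RNR2 and MT-ND1, stood at 164, 158 and 154 FPKM in control, 219.9, 187 and 195 at 24 h, and 203.3, 179 and 191 at 48 h. All treated libraries lay above the controls, and the difference at 48 h was 0.26 ± 0.07 (limma, adjusted p = 0.0187). MT-TS2, for serine, stood at 48.1, 37.3 and 48.1 FPKM in control, 42.5, 64.2 and 55.7 at 24 h, and 24.8, 29.6 and 33.4 at 48 h, on 33 to 82 fragments. The 48 h libraries lay below all others. The difference was -0.59 ± 0.17 from control (limma, adjusted p = 0.028) and -0.86 ± 0.17 from 24 h (adjusted p = 0.00479). The MT-TL1 call was lost by leaving out any of control replicates 2 and 3 and 48 h replicates 1 and 3 (adjusted p = 0.0518 to 0.0658). The MT-TS2 call against control was lost by leaving out any of control replicates 1 and 3 and 48 h replicates 1 and 2 (adjusted p = 0.0711 to 0.0928).

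Between 24 h and 48 h, 2 tRNAs rose (MT-TC and MT-TN) and 4 fell (MT-TS2, MT-TH, MT-TR and MT-TP), beside 32.3% called over all genes. MT-TR, the arginine tRNA between MT-ND3 and MT-ND4L, stood at 73, 69.3 and 70.5 FPKM in control, 97.2, 98.1 and 114 at 24 h, and 73.6, 75.9 and 80.3 at 48 h. The 24 h libraries lay above all others. Its difference was -0.42 ± 0.06 at 48 h against 24 h (limma, adjusted p = 0.00155) and 0.53 ± 0.06 at 24 h against control (adjusted p = 0.14). The latter was called under non-mitochondrial scaling (adjusted p = 0.0124) and quantile normalization (adjusted p = 0.00113). MT-TH, the histidine tRNA, stood at 213, 202.9 and 148 at 24 h and 135, 135 and 141 at 48 h (-0.44 ± 0.12, adjusted p = 0.0241), and its value in the third 24 h library lay within the control range of 137 to 158. Its call ended when any of 5 libraries was left out (24 h replicates 1 and 2, 48 h replicates 1, 2 and 3, adjusted p = 0.0518 to 0.0769).

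**Figure D4:**
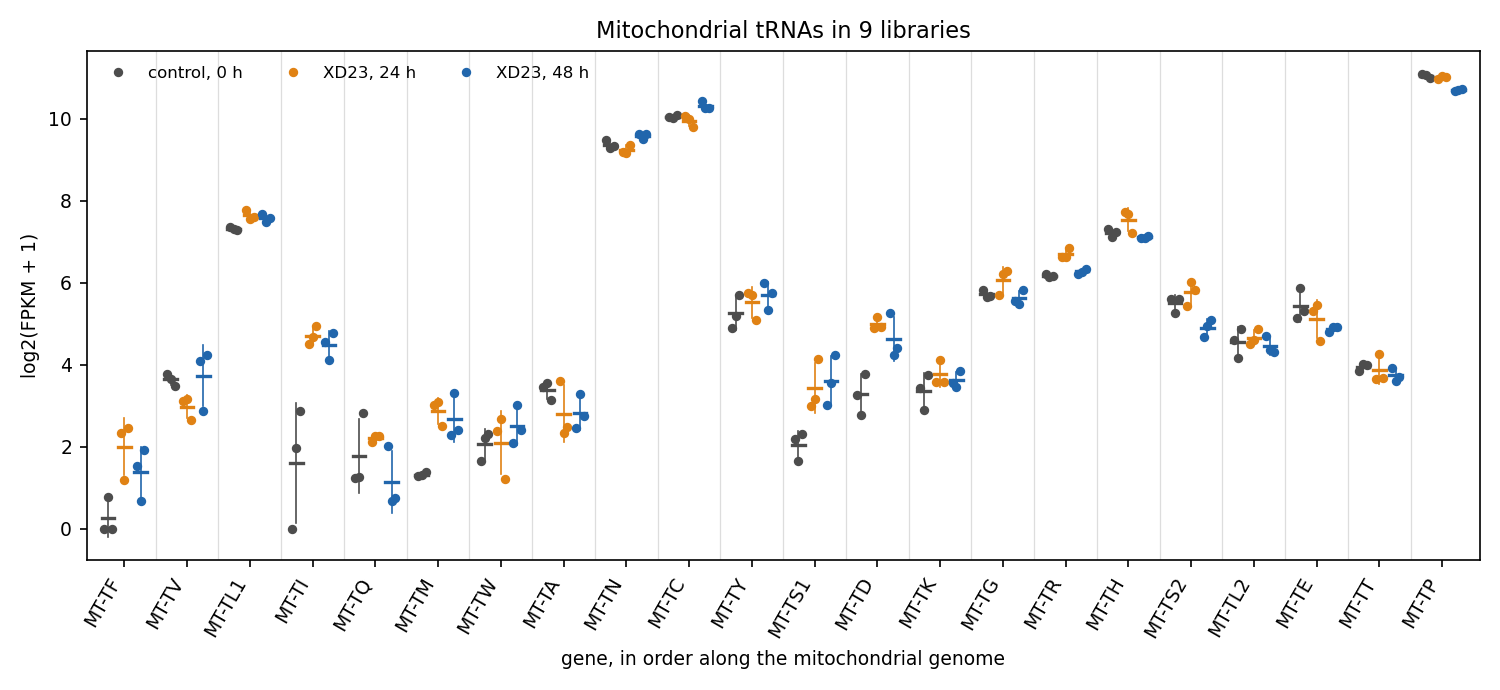
log2(FPKM + 1) of the 22 mitochondrial tRNAs in genome order; points are single libraries, horizontal lines means and vertical lines SD (n = 3). MT-TP, MT-TC and MT-TN lie highest, and MT-TF and MT-TI have control libraries at 0.

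The nuclear genes that serve mitochondrial gene expression were counted from 5 lists with 84 genes, 80 of them tested. At 48 h against control 30 of the 80 fell and 3 rose, beside 15.2% and 13.3% of all genes, and their median difference was -0.14. At 24 h 0 were called. In the transcription list (13 tested, 1 rose, 2 fell) TFAM, which packages mitochondrial DNA and starts its transcription, fell from 37.9 ± 0.57 to 29.6 ± 0.67 FPKM (-0.34 ± 0.03, limma adjusted p = 0.000187). MTERF1, which binds mitochondrial DNA downstream of the rRNA genes, fell (-0.29 ± 0.06), and NRF1, a nuclear regulator of such genes, rose (0.23 ± 0.05). POLRMT differed by 0.13 ± 0.05 (adjusted p = 0.0968), TFB2M by -0.09 ± 0.06 (adjusted p = 0.363) and the elongation factor TEFM by -0.18 ± 0.07 (adjusted p = 0.0745).

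In the RNA processing and stability list 10 of 20 fell and 0 rose. LRPPRC and SLIRP, which form the complex that stabilizes mitochondrial mRNAs, fell by 0.36 ± 0.04 and 0.53 ± 0.10 (14.8 to 11.3 and 23.8 to 16.1 FPKM), and TRMT10C, a subunit of mitochondrial RNase P, fell by 0.39 ± 0.07. FASTKD5, needed to process junctions that carry no tRNA, fell by 0.44 ± 0.07, while the poly(A) polymerase MTPAP differed by -0.07 ± 0.05 (adjusted p = 0.294). In DNA maintenance 5 of 15 fell and 0 rose, among them the nucleases DNA2 (-0.37 ± 0.05) and MGME1 (-0.33 ± 0.06). In tRNA modification 6 of 17 fell and 1 rose, with CDK5RAP1 at -0.33 ± 0.04 and ALKBH1 at 0.25 ± 0.06, a call lost by leaving out either control replicate 2 or the third 48 h library (adjusted p up to 0.0566). In rRNA modification and translation 7 of 15 fell and 1 rose, with the initiation factor MTIF2 at -0.46 ± 0.04, the elongation factor TUFM at -0.32 ± 0.05 and TACO1, an activator of MT-CO1 translation, at -0.41 ± 0.05. The 1 that rose there was OXA1L, which inserts new subunits into the inner membrane (0.10 ± 0.03, adjusted p = 0.0487), and its call was lost with any 1 of 8 libraries left out, the third 24 h library being the exception.

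The nuclear subunits of the complexes were set beside the mitochondrial ones. Of 72 tested, 25 fell and 0 rose at 48 h against control, beside 15.2% falling and 13.3% rising over all genes. Their median difference was -0.24, that of the 13 mitochondrial mRNAs 0.04 and that of all genes -0.02. In complex I 9 of 35 fell, in complex III 3 of 9, in complex IV 4 of 11 and in ATP synthase 9 of 17. MT-CYB rose while its partners CYC1 (-0.27 ± 0.06) and UQCRC2 (-0.26 ± 0.04) fell. In complex IV MT-CO1 and MT-CO3 rose and MT-CO2 fell, while the largest of the 4 nuclear falls was that of COX7B (-0.53 ± 0.10). In ATP synthase, ATP5MF (-0.49 ± 0.09) and ATP5PF (-0.38 ± 0.07) fell, and neither mitochondrial subunit was called. The difference between the genomes was not tested. Leaving out control replicate 1 or 48 h replicate 2 gave 10 falling nuclear subunits, leaving out 48 h replicate 1 gave 14, and leaving out the third 24 h library gave 45. In the expression lists 18 fell without control replicate 1 or 48 h replicate 2 and 19 without control replicate 3. In 48 h against 24 h, 38 of the 72 subunits fell and 0 rose, and 32 of the 80 expression genes fell and 6 rose, beside 16.3% falling and 16.0% rising over all genes. Without the third 24 h library 33 of each fell. Without 48 h replicate 2 the counts were 18 and 20, and without 48 h replicate 1, 23 subunits fell.

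**Figure D5:**
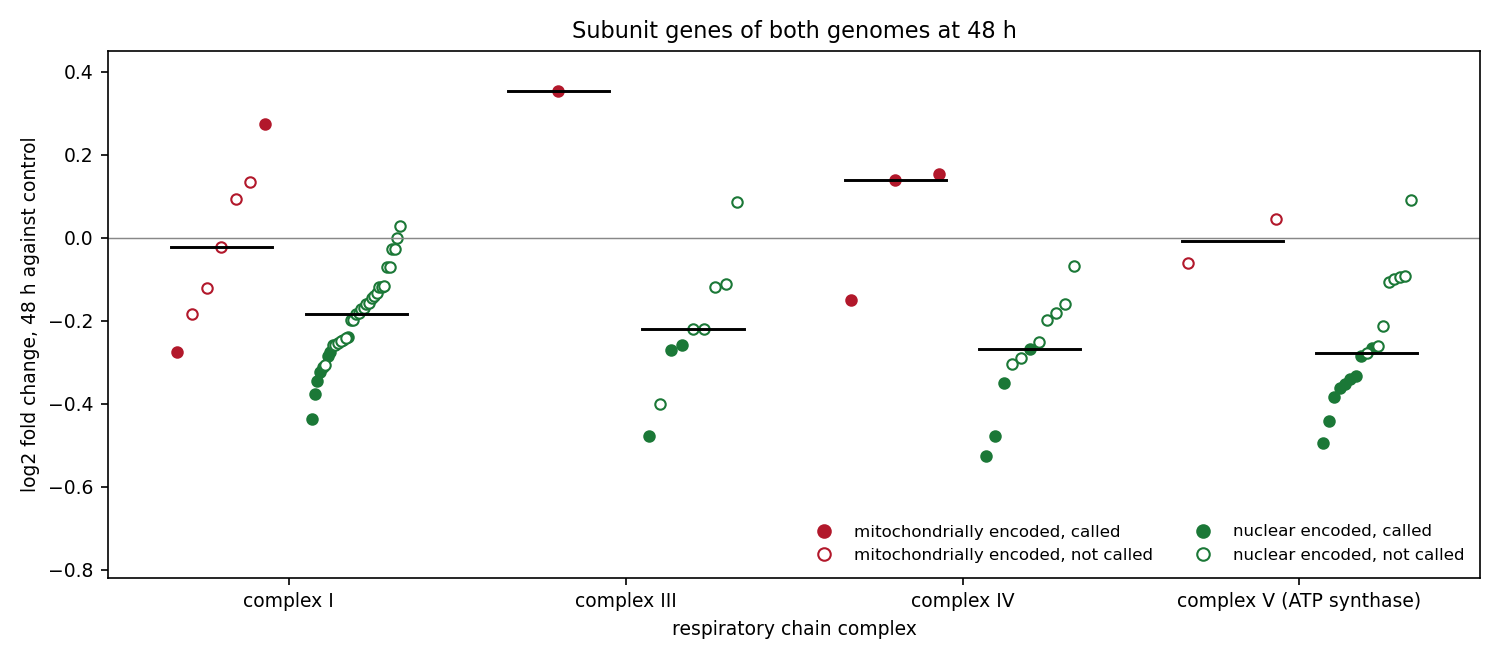
Log2 fold change at 48 h against control of each tested subunit gene, by complex, for subunits encoded in mitochondrial and in nuclear DNA; filled points were called, open points were not, and horizontal lines are medians. The nuclear medians lie at -0.19, -0.22, -0.27 and -0.28 in complexes I, III, IV and ATP synthase, while the called mitochondrial mRNAs lie on both sides of 0.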

How the data were processed

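Transcript levels were measured by RNA-seq in 9 libraries of 143B cells. The authors deposited FPKM in 1 table of 36810 genes with replicates kept apart; per the submitters' processing notes HISAT2, featureCounts, Subread and DESeq2 were used with build hg38, with versions and strand settings not given in the sources used here. Symbols were paired for 36724 genes, and 35585 matched GENCODE release 29, which gave positions, lengths and transcript sequences. FPKM times exon length and a total per library gave whole fragments for 58.8% of those genes, within 0.001. A match of sequences used Biopython 1.88.

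Genes with at least 1 FPKM in at least 3 libraries (13657, including all 37 mitochondrial genes) were tested on log2(FPKM + 1), which understates changes of low genes. limma 3.58.1 in R 4.3.3 was fitted to all 9 libraries with 3 group means and a trend (6 residual degrees of freedom, two-sided p, Benjamini-Hochberg over all tested genes). An exact permutation test of 3 against 3 libraries cannot go below p = 0.1, so it cannot reach 0.05. The fit was tested on simulated data drawn around the control means. No outlying library was simulated, so that test does not cover one, and no result here rests on it. The members, lists, named genes and alternatives were chosen with earlier results of these data known. All mRNAs and rRNAs are named, as are tRNAs that were called, most abundant or at 0, the 4 most abundant nuclear copies, and from each list some of the 4 largest called changes with 7 genes fixed by name. Alternatives were other pseudocounts (0.1, 0.5), filters (none, 5 FPKM), scalings, weights and fits, a replicate block, and leaving out each library. Non-mitochondrial scaling sets the FPKM sum without the 37 genes equal in all libraries.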

Additional observations from a re-analysis of the deposited data

Results flagged for a closer look

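In 11 mitochondrial genes the value at 48 h differed from that at 24 h by a test of that difference itself (limma, adjusted p under 0.05 over all genes tested, log2 scale). The mRNAs all lay lower at 48 h: MT-ND1 by -0.5497, MT-ND3 by -0.3138, MT-ATP6 by -0.1882, MT-CO2 by -0.1736 and MT-ATP8 by -0.1619. MT-ND1 was the mRNA whose treated libraries all lay above control at 24 h and all below it at 48 h. Among the tRNAs, MT-TN (0.3486) and MT-TC (0.3655) lay higher at 48 h, and MT-TS2 (-0.8556), MT-TH (-0.4353), MT-TR (-0.4222) and MT-TP (-0.3037) lay lower. Over all genes tested 32.3% differed between these times, so 11 of 37 is no more than the background, and XD23 and the time in culture cannot be told apart.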

How the results depend on the processing

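Of 26 calls of mitochondrial genes over the 3 comparisons, 6 held under all 20 alternatives and 14 held with each library left out in turn. No filter at 48 h against control left 1 mRNA that rose and 0 that fell, 3 tRNAs that rose and 0 that fell, and 13 falling nuclear subunits. Against 24 h it left 1 falling mRNA, 1 rising and 2 falling tRNAs, 3 rising expression genes and 19 falling subunits. Quantile normalization gave at 24 h 1 rising mRNA, 1 falling mRNA (MT-CO2, reversed to -0.12 from 0.02) and 1 rising tRNA. At 48 h it gave 2 rising and 1 falling mRNAs and 1 rising subunit, and against 24 h 1 rising mRNA, 1 falling mRNA, 1 rising tRNA and 1 rising subunit. Non-mitochondrial scaling gave 1 rising tRNA at 24 h, 1 rising subunit at 48 h, and against 24 h 2 rising mRNAs, 1 rising rRNA and 1 rising subunit. Median-of-ratios scaling and the fit to only the groups compared each left 1 falling mRNA at 48 h, and the latter gave 44 falling subunits. The filter at 5 FPKM gave 1 rising subunit against 24 h. Voom, which could test only 5095 genes, gave at 48 h 4 rising and 1 falling tRNAs, 0 rising and 8 falling expression genes and 6 falling subunits. Against 24 h it gave 1 rising mRNA, 1 rising rRNA, 0 rising and 12 falling expression genes and 10 falling subunits. Apart from fewer genes tested under voom and ranks fixed under quantile normalization, the cause was not tested.

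Leaving out 1 library gave at 24 h 0 to 1 rising tRNAs. At 48 h it gave 2 to 4 rising and 1 to 2 falling mRNAs, 4 to 8 rising and 1 to 3 falling tRNAs, 1 to 4 rising and 18 to 36 falling expression genes, and 10 to 45 falling subunits. Against 24 h it gave 2 to 5 falling mRNAs, 0 to 1 rising rRNAs, 2 to 6 rising and 20 to 33 falling expression genes, and 0 to 1 rising and 18 to 45 falling subunits. The tRNA calls against 24 h also moved. MT-TH lost its call without any of 5 libraries, while MT-TV (rising), MT-TQ and MT-TG (both falling) were each called in some of these fits. With the replicate block, 3 mRNAs rose and 1 fell at 48 h, 7 tRNAs rose and 2 fell, and against 24 h 4 mRNAs fell and 1 subunit rose. The numbers in the labels are not shown to pair the libraries: of 9 pairs with the same number 2 had a correlation of deviations over 0.1 (range -0.057 to 0.239), and 4 of 9 libraries correlated best with their own number. Depth limits the tRNAs, 11 of which had under 50 fragments in every library.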
